A study of Mus musculus with 6 samples.

Results

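Microglia and border macrophage genes are described here as a panel of 40 genes, picked by symbol and found among the 35275 genes of the deposited tables, each on 1 row. The panel holds 10 receptor and surface genes of homeostatic microglia, 3 myeloid transcription factors, 8 disease-associated microglia genes, 4 Fc receptor genes, 10 general myeloid and leukocyte genes and 5 border macrophage genes. The libraries hold poly(A) RNA of whole spinal cord, 1 mouse each, from 3 Sox2 cKO mice (mGfap-Cre:Sox2fl/fl, C57BL/6) and 3 Ctrl mice of the same strain. In the cKO mice the mouse Gfap promoter drives Cre, which removes the floxed Sox2 alleles in most astrocytes. The sample labels give the Ctrl genotype as mGfap-Cre:Sox2+/+, the series design allows either allele alone, and the paper names littermates with the floxed allele, so whether the Ctrl mice carried Cre is not settled. Age is given as postnatal day 90 in the sample labels and as day 80 in the protocol and the paper. Nothing was sorted, so a value is the share of a gene in the RNA of the whole cord, in which fewer cells of a type and less RNA per cell cannot be told apart.

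Microglia are the resident macrophages of the spinal cord parenchyma, and border macrophages live in the meninges and around vessels. Resting microglia carry the purine receptor P2RY12, the fractalkine receptor CX3CR1 and the growth factor receptor CSF1R, whose signal keeps them alive. In disease, ageing and demyelination many microglia turn down these genes and turn on a phagocytic and lipid-handling programme that runs through the receptor TREM2 and its adaptor TYROBP (DAP12).

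Libraries held 21507911 to 28392184 counts on genes, and library sizes of the groups overlapped. The columns of the tables carry numbers only, and numbers 2, 4 and 6 were taken as Ctrl and 1, 3 and 5 as Sox2 cKO. The group means that the authors list for 1999 genes matched this assignment for all 1999 and matched the exchanged one for 0. Sox2 itself had 19.9, 14.8 and 29.5 CPM (counts scaled to the size of each library, TMM-normalized) in Ctrl libraries 2, 4 and 6 and 3.16, 2.69 and 2.98 CPM in Sox2 cKO libraries 1, 3 and 5. Sox2 thus had a value of -2.86 for the log2 fold change (standard error, SE, 0.24, adjusted p = 0.00096, edgeR). Sox2 cKO library 1 and Ctrl library 6 stood apart from the others in ways that touch the panel, and values without them are given for some of the results they moved.

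The panel was present in every library. By mean FPKM, which divides by gene length and so allows levels of different genes to be set side by side, Spp1 was the most abundant member at 119, followed by Lyz2 at 22.7, Csf1r at 18.1, Tyrobp at 16.9, Cx3cr1 at 11.2 and Tmem119 at 10.6. The homeostatic microglia genes ranged from 2.33 FPKM for P2ry13 to 18.1 for Csf1r, while the border macrophage genes ranged from 0.111 for Ms4a7 to 2.46 for Pf4. Spp1 is also made by spinal motor neurons and Lpl by other neural cells, so their levels do not belong to macrophages alone. The FPKM of Trem2, 1.93, rests on a length of 4784 bases, that of the longest of its 4 annotated transcripts, whose median length is 1072 bases, and is a low estimate if the shorter ones prevail.

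Of the 40 members, 39 passed the filter on low counts and Cst7 did not. Of these 39, the quasi-likelihood test of edgeR called 8 at an adjusted p-value under 0.05, or 20.5%, against 24.6% of all 16137 genes tested. Trem2, Tyrobp, Spp1, Lyz2, Ly86 and Pf4 rose in Sox2 cKO spinal cord and Lpl and Gpnmb fell. The 6 rises made up 15.4% of the tested members, against 12.2% of all genes, and the 2 falls made up 5.13%, against 12.4%. The share of members called was thus near or under that of all genes, and the calls do not set the panel apart from other genes. The log2 fold change was positive for 27 members and negative for 12, with a median of 0.21 over the members and 0.02 over all genes tested. Groups of libraries did not overlap for 11 members that were higher and 4 that were lower in Sox2 cKO, where the shares among all genes tested were 22.6% and 22.1%. DESeq2 called 11 of the 38 members for which it gave an adjusted p-value, beside 27.7% of all genes. The plot of fold changes by role shows where the calls lie within the panel.

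**Figure D1:**
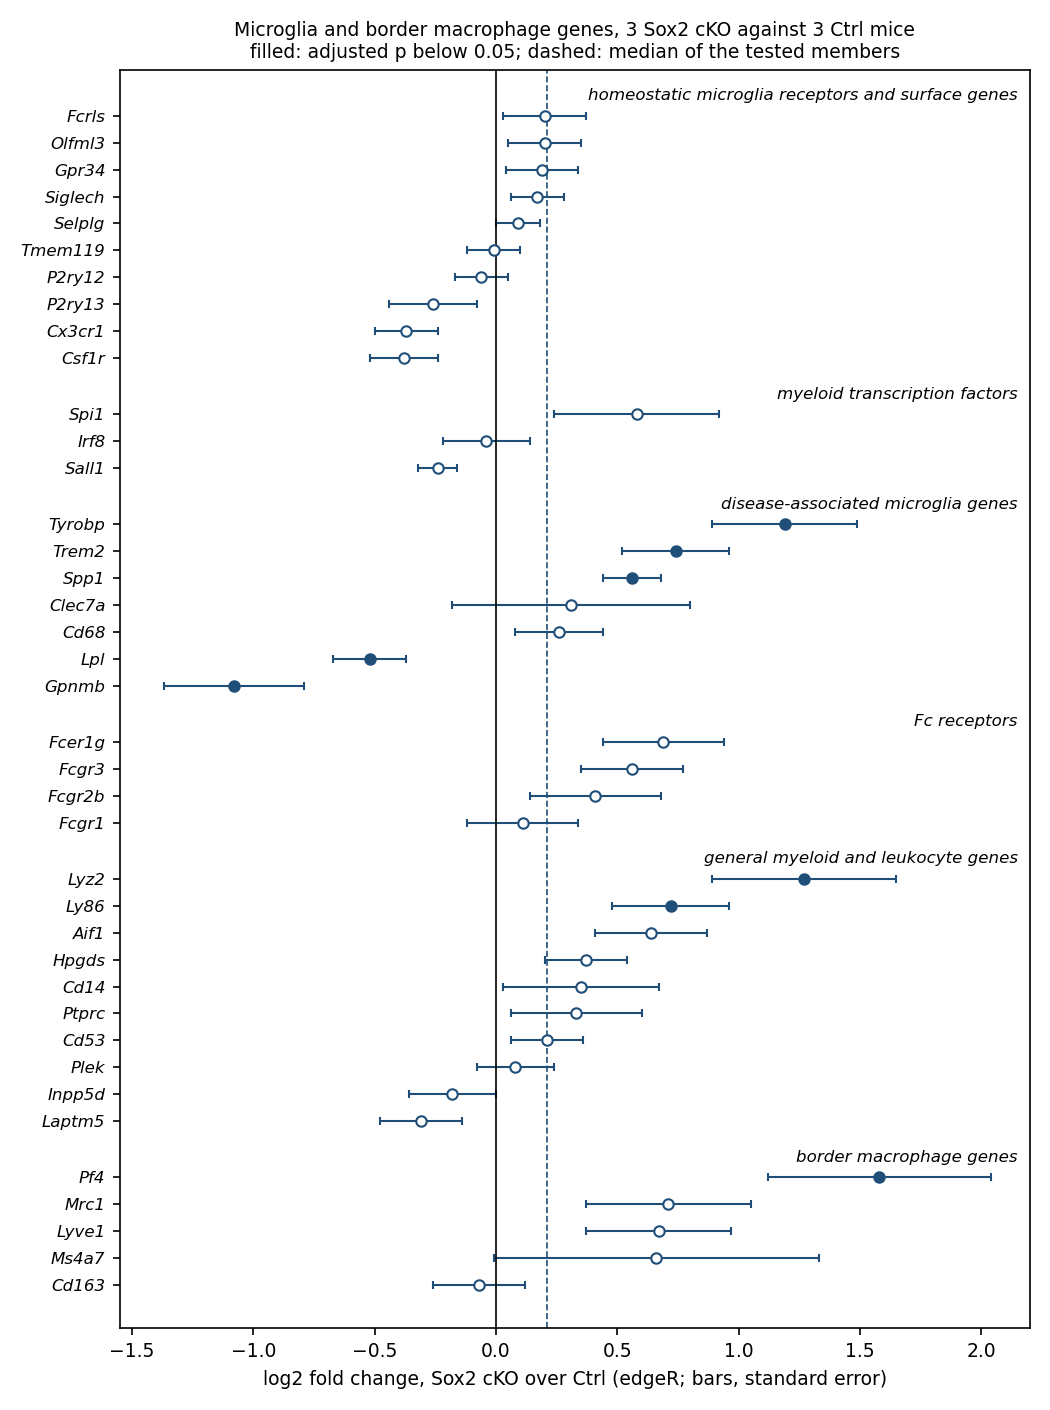
Log2 fold change of Sox2 cKO over Ctrl for the 39 tested members, grouped by role, with the standard error from edgeR as bars (n = 3 mice per group). Filled points had an adjusted p-value below 0.05, and the dashed line is the members' median of 0.21. No gene of the homeostatic group is filled, while 5 of the 7 tested disease-associated genes are, 3 to the right of 0 and 2 to the left. Of all genes tested, 24.6% were called.

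None of the 10 homeostatic receptor and surface genes passed the edgeR test, although 2 of them had an unadjusted p-value below 0.05, and DESeq2 called the same pair, Cx3cr1 and Csf1r, as lower. P2ry12, through which microglial processes sense ATP and ADP, had 20, 16 and 20.1 CPM in Ctrl libraries 2, 4 and 6 and 17.2, 18.8 and 17.6 CPM in Sox2 cKO libraries 1, 3 and 5. Tmem119, a surface protein that marks microglia, had 22.4, 22.6 and 26.5 CPM in Ctrl and 26.6, 23.0 and 21.4 CPM in Sox2 cKO. The groups overlapped for both genes, with log2 fold changes of -0.06 for P2ry12 (SE 0.11, adjusted p = 0.71) and -0.01 for Tmem119 (SE 0.11, adjusted p = 0.95, both edgeR).

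Cx3cr1, the receptor for the neuronal chemokine fractalkine, had 45.3, 46.3 and 50.8 CPM in Ctrl and 44.3, 34.8 and 30.9 CPM in Sox2 cKO. All 3 Sox2 cKO libraries were under the lowest Ctrl library, library 1 only just. The log2 fold change of Cx3cr1 was -0.37 (SE 0.13, adjusted p = 0.053 in edgeR and 0.022 in DESeq2). Csf1r, the receptor for CSF1 and IL-34, had 81.6, 96.0 and 112 CPM in Ctrl and 87.6, 73.7 and 61.6 CPM in Sox2 cKO. Here library 1 lay among the Ctrl libraries, and the log2 fold change was -0.38 (SE 0.14, adjusted p = 0.072 in edgeR and 0.030 in DESeq2). With the length correction given below, Cx3cr1 had -0.34 (adjusted p = 0.089) and Csf1r -0.25 (adjusted p = 0.23, both edgeR). The other homeostatic genes, P2ry13, Gpr34, Siglech, Fcrls, Selplg and Olfml3, had log2 fold changes between -0.26 and 0.20, and the smallest adjusted p-value among them was 0.30 in edgeR. Over the 10 genes the median was 0.04, with 5 positive and 5 negative.

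The 3 transcription factors did not pass the test either, in edgeR or DESeq2, and 1 of them, Sall1, had an unadjusted p-value below 0.05. Sall1, a zinc-finger factor that keeps microglial identity, had 37.6, 39.3 and 37.4 CPM in Ctrl and 32.5, 33.5 and 30.9 CPM in Sox2 cKO. The groups did not overlap, and the log2 fold change was -0.24 (SE 0.08, adjusted p = 0.054, edgeR). Sall1 is in the longest of the length classes given below, in which all tested genes had a median of -0.25. With the length correction its log2 fold change was -0.08 (adjusted p = 0.5, edgeR). Spi1, which encodes the myeloid master factor PU.1, had 2.47, 2.08 and 1.98 CPM in Ctrl and 5.18, 2.80 and 1.85 CPM in Sox2 cKO. Library 1 alone was well above the rest, and the log2 fold change of 0.58 for Spi1 (SE 0.34, adjusted p = 0.23) was 0.10 without that library. Irf8, an interferon regulatory factor that microglia need, had 5.02, 5.03 and 5.17 CPM in Ctrl and 6.15, 4.71 and 4 CPM in Sox2 cKO, with overlap and an adjusted p-value of 0.89 in edgeR.

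The disease-associated genes held 5 of the 8 calls, and these went in both directions. They were 71.4% of the 7 tested genes of this group, against 24.6% of all genes tested. With the length correction given below edgeR called 2 of the 7, and in fits without 1 library it called 0 to 5. Trem2 (chromosome 17, 48346401 to 48354147), the lipid-sensing receptor of the programme, had 8.30, 6.19 and 5.99 CPM in Ctrl and 15.5, 9.99 and 8.76 CPM in Sox2 cKO. Tyrobp (chromosome 7, 30413760 to 30417585), the adaptor through which TREM2 signals, had 8.61, 4.70 and 3.81 CPM in Ctrl and 17.7, 12 and 9.44 CPM in Sox2 cKO. For both genes library 1 was the highest of the 6, Ctrl library 2 was the highest of the Ctrl libraries, and the groups did not overlap. Trem2 rose by a log2 fold change of 0.74 (SE 0.22, adjusted p = 0.037) and Tyrobp by 1.19 (SE 0.30, adjusted p = 0.022, both edgeR), or 1.67-fold and 2.27-fold.

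Spp1 (chromosome 5, 104435118 to 104441050) encodes osteopontin, a secreted phosphoprotein of the matrix. It had 170, 143 and 120 CPM in Ctrl and 209, 221 and 208 CPM in Sox2 cKO. The Sox2 cKO libraries lay close together above all Ctrl libraries, and library 1 was not the highest. The log2 fold change of Spp1 was 0.56 (SE 0.12, adjusted p = 0.014, edgeR), or 1.47-fold.

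The falls were those of Lpl and Gpnmb, both of which rise in the disease-associated state. Lpl (chromosome 8, 68880491 to 68907448), the lipase that frees fatty acids from lipoproteins, had 16.7, 17.8 and 22.9 CPM in Ctrl and 15.5, 11.6 and 12.9 CPM in Sox2 cKO. Gpnmb (chromosome 6, 49036546 to 49070929), a membrane glycoprotein of phagocytes that have taken up lipid, had 3.36, 2.41 and 3.23 CPM in Ctrl and 0.834, 1.60 and 1.78 CPM in Sox2 cKO. No library of one group reached the other for either gene. Lpl fell by a log2 value of 0.52 (SE 0.15, adjusted p = 0.031) and Gpnmb fell by 1.08 (SE 0.29, adjusted p = 0.025, both edgeR). Gpnmb was 2.11-fold lower and had its lowest value in library 1.

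The remaining disease-associated genes held no call, and Clec7a and Cst7 had few counts. Cd68, a lysosomal glycoprotein of phagocytes, had 4.35, 4.99 and 3.81 CPM in Ctrl and 6.19, 4.98 and 4.65 CPM in Sox2 cKO, with overlap (log2 fold change 0.26, SE 0.18, adjusted p = 0.30, edgeR). Clec7a, the beta-glucan receptor dectin-1, had 14, 16 and 6 counts in Ctrl and 26, 13 and 12 counts in Sox2 cKO, an adjusted p-value of 0.66. Cst7, which encodes the protease inhibitor cystatin F and is among the strongest markers of the state, had 6, 9 and 8 counts in Ctrl and 17, 10 and 5 counts in Sox2 cKO and was not tested. At this depth the counts of Clec7a and Cst7 could not resolve a change of moderate size.

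**Figure D2:**
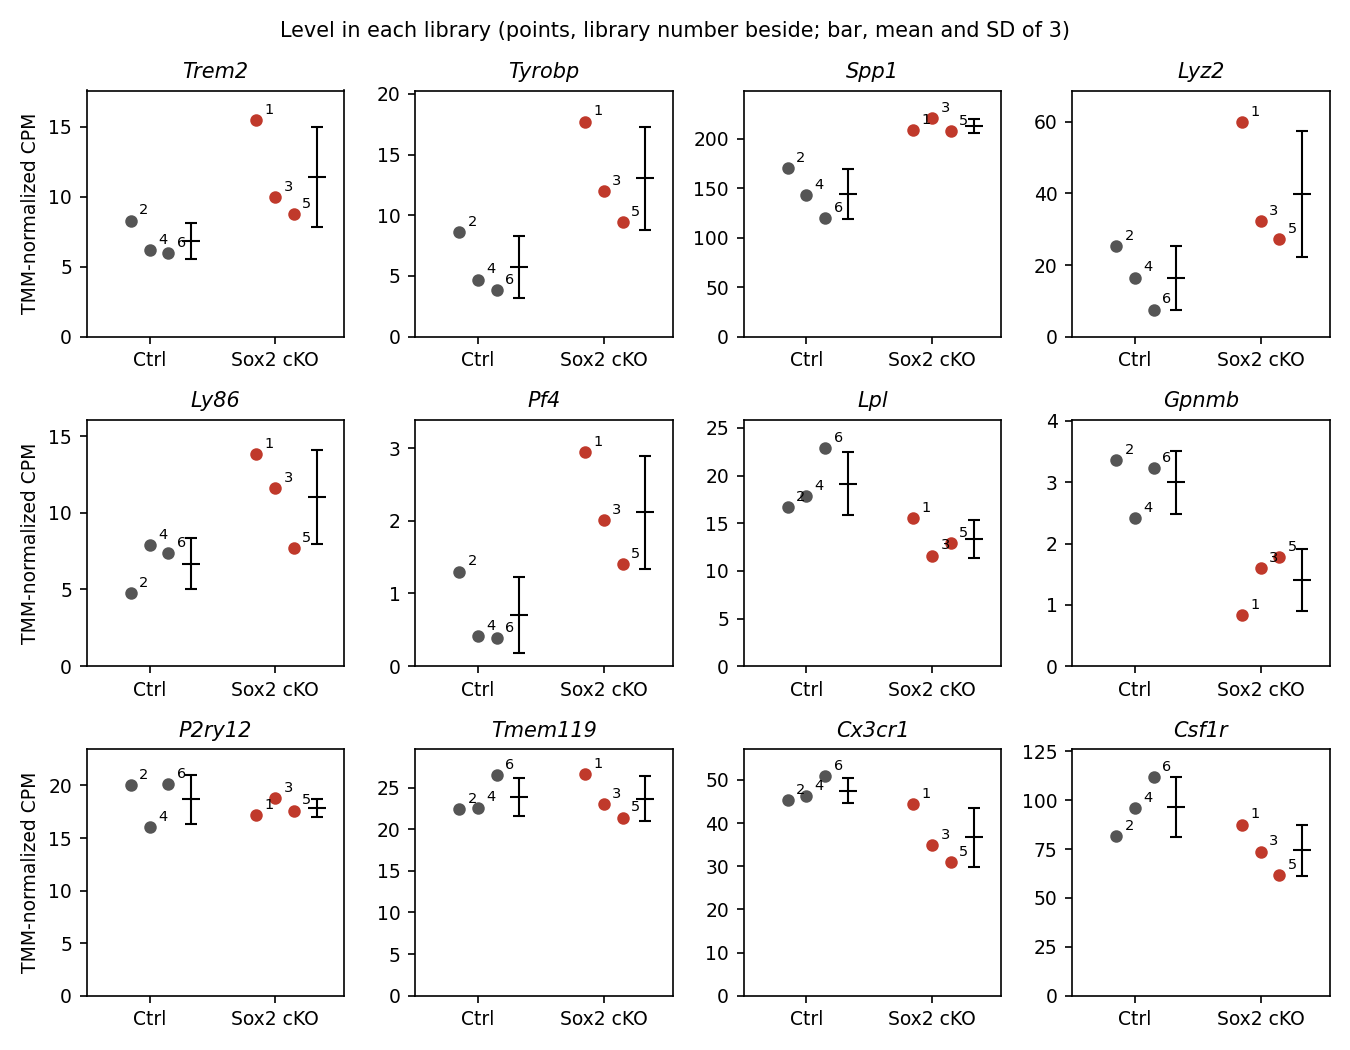
TMM-normalized CPM of the 8 called members and of 4 homeostatic genes in each library, with library numbers beside the points and the mean and SD of 3 libraries as bars. Library 1 is the highest point for Trem2, Tyrobp, Lyz2, Ly86 and Pf4, and the Sox2 cKO points of Spp1 lie together. The groups overlap for the called member Ly86 and for P2ry12, Tmem119 and Csf1r.

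All 4 Fc receptor genes had positive log2 fold changes, and none passed the edgeR test, though 2 had an unadjusted p-value below 0.05 and DESeq2 called both of them. Fcer1g, the signalling gamma chain shared by Fc receptors, had 5.11, 3.78 and 5.70 CPM in Ctrl and 11.0, 6.52 and 6.08 CPM in Sox2 cKO. Fcgr3, an activating receptor for IgG, had 10.4, 7.44 and 9.99 CPM in Ctrl and 18.5, 11.6 and 10.9 CPM in Sox2 cKO. The groups did not overlap for these, with log2 fold changes of 0.69 for Fcer1g (SE 0.25, adjusted p = 0.063) and 0.56 for Fcgr3 (SE 0.21, adjusted p = 0.077, both edgeR). Without Sox2 cKO library 1 these were 0.38 and 0.28. With the length correction given below, Fcer1g had 0.29 (adjusted p = 0.38) and Fcgr3 0.27 (adjusted p = 0.33, both edgeR). Fcgr2b, the inhibitory IgG receptor, had 2.56, 2.08 and 3.19 CPM in Ctrl and 4.83, 2.90 and 2.72 CPM in Sox2 cKO and overlapped (adjusted p = 0.27). Fcgr2b and Fcgr3 are near copies over their extracellular part, so reads could be split between them. Fcgr1, the high-affinity receptor, had a log2 fold change of 0.11.

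Among the 10 general myeloid and leukocyte genes, Lyz2 and Ly86 rose. Lyz2 (chromosome 10, 117277331 to 117282321), lysozyme of macrophages and neutrophils, had 25.3, 16.5 and 7.53 CPM in Ctrl and 59.9, 32.2 and 27.2 CPM in Sox2 cKO. The groups did not overlap, but they spread widely, with means of 16.4 ± 8.89 and 39.7 ± 17.6 CPM (SD, n = 3). Its log2 fold change was 1.27 (SE 0.38, adjusted p = 0.038 in edgeR and 0.088 in DESeq2). Without Ctrl library 6, the lowest, it was 0.93 (adjusted p = 0.079, edgeR). Lyz1, the paralog of Lyz2, had at most 0.512 CPM in any library. Ly86 (chromosome 13, 37345208 to 37419036), or MD-1, a partner of the Toll-like receptor relative RP105, had 4.76, 7.90 and 7.39 CPM in Ctrl and 13.8, 11.6 and 7.71 CPM in Sox2 cKO. Library 5 fell below Ctrl library 4, so the groups overlapped, and the log2 fold change was 0.72 (SE 0.24, adjusted p = 0.049, edgeR).

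Cd14, the co-receptor for lipopolysaccharide, had 3.50, 2.79 and 2.90 CPM in Ctrl and 6.24, 3.10 and 2.46 CPM in Sox2 cKO. Ptprc, which encodes the leukocyte antigen CD45, had 3.54, 3.37 and 5.84 CPM in Ctrl and 7.33, 4.16 and 4.53 CPM in Sox2 cKO. Both overlapped, with adjusted p-values of 0.44 for Cd14 and 0.39 for Ptprc in edgeR. Aif1, the actin-binding protein IBA1 by which microglia are stained, had a log2 fold change of 0.64 (SE 0.23, adjusted p = 0.063, edgeR) with no overlap, and of 0.37 without Sox2 cKO library 1. For Aif1 the value with the length correction was 0.27 (adjusted p = 0.41, edgeR). The other 5, Laptm5, Cd53, Inpp5d, Plek and Hpgds, ranged from -0.31 for Laptm5 to 0.37 for Hpgds, and none passed.

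Of the 5 border macrophage genes only Pf4 rose. Pf4 (chromosome 5, 90772435 to 90773383), the chemokine platelet factor 4, had 1.30, 0.416 and 0.386 CPM in Ctrl, or 29, 10 and 8 counts, and 2.94, 2.01 and 1.40 CPM in Sox2 cKO, or 67, 59 and 37 counts. The groups did not overlap, and the log2 fold change was 1.58 (SE 0.46, adjusted p = 0.033, edgeR), or 2.99-fold. Without Ctrl library 2, the highest Ctrl value, it was 2.37 (adjusted p = 0.003, edgeR). Mrc1, the mannose receptor CD206, had 4.67, 4.74 and 1.83 CPM in Ctrl and 7.95, 6.72 and 3.89 CPM in Sox2 cKO, with overlap (log2 fold change 0.71, SE 0.34, adjusted p = 0.15, edgeR). Lyve1, a hyaluronan receptor of perivascular and meningeal macrophages, had 2.92, 3.41 and 1.26 CPM in Ctrl and 4.57, 3.99 and 3.63 CPM in Sox2 cKO, without overlap (log2 fold change 0.67, SE 0.30, adjusted p = 0.12, edgeR).

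Cd163, the scavenger receptor for haemoglobin bound to haptoglobin, did not follow them. It had 4.49, 5.40 and 3.57 CPM in Ctrl and 4.52, 3.92 and 4.46 CPM in Sox2 cKO, a log2 fold change of -0.07 (SE 0.19, adjusted p = 0.81, edgeR). Ms4a7, a membrane protein of border macrophages, had only 14, 1 and 5 counts in Ctrl and 16, 13 and 8 counts in Sox2 cKO (adjusted p = 0.49).

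Ctrl library 6 was the lowest of the 6 for 4 of these 5 genes, and it was also the lowest for 9 of 10 genes of meningeal fibroblasts. The summed level of that fibroblast list was 292 CPM in Ctrl library 6, against 729 and 689 CPM in the other Ctrl libraries and 567 to 707 CPM in Sox2 cKO. Without Ctrl library 6 the log2 fold change of Mrc1 was 0.39 and that of Lyve1 0.36, while Pf4 kept 1.31 (adjusted p = 0.10, edgeR). The median over the border macrophage genes was 0.67 with all libraries and 0.39 without that one. How much meninges each cord carried was not measured, and its part in these differences was not tested.

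Sox2 cKO library 1 was the highest library for 29 of the 40 members, or 72.5%, where it was the highest for 27.2% of all genes tested. It was highest for all 4 Fc receptor genes, 9 of 10 general myeloid genes and 4 of 5 border macrophage genes, and for 5 of 10 homeostatic genes. The summed level of the panel was 643, 611 and 629 CPM in Ctrl and 816, 690 and 633 CPM in Sox2 cKO, so library 5 lay within the Ctrl range. The median deviation of the tested members from their Ctrl mean, on the scale of log2(CPM + 0.5), was 0.46 in library 1, 0.09 in library 3 and 0.04 in library 5. Without library 1 the median log2 fold change of the panel was 0.09 instead of 0.21. The 8 called members kept their directions without it, with log2 fold changes of 0.46 for Trem2, 0.91 for Tyrobp, 0.57 for Spp1, 0.85 for Lyz2, 0.54 for Ly86, 1.28 for Pf4, -0.64 for Lpl and -0.83 for Gpnmb, and none was called. In that edgeR fit 8 genes were called in the whole table, although 4945 had an unadjusted p under 0.05. DESeq2, run without library 1, still called Spp1 and Tyrobp as higher and Csf1r, Cx3cr1, Laptm5 and Lpl as lower.

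**Figure D3:**
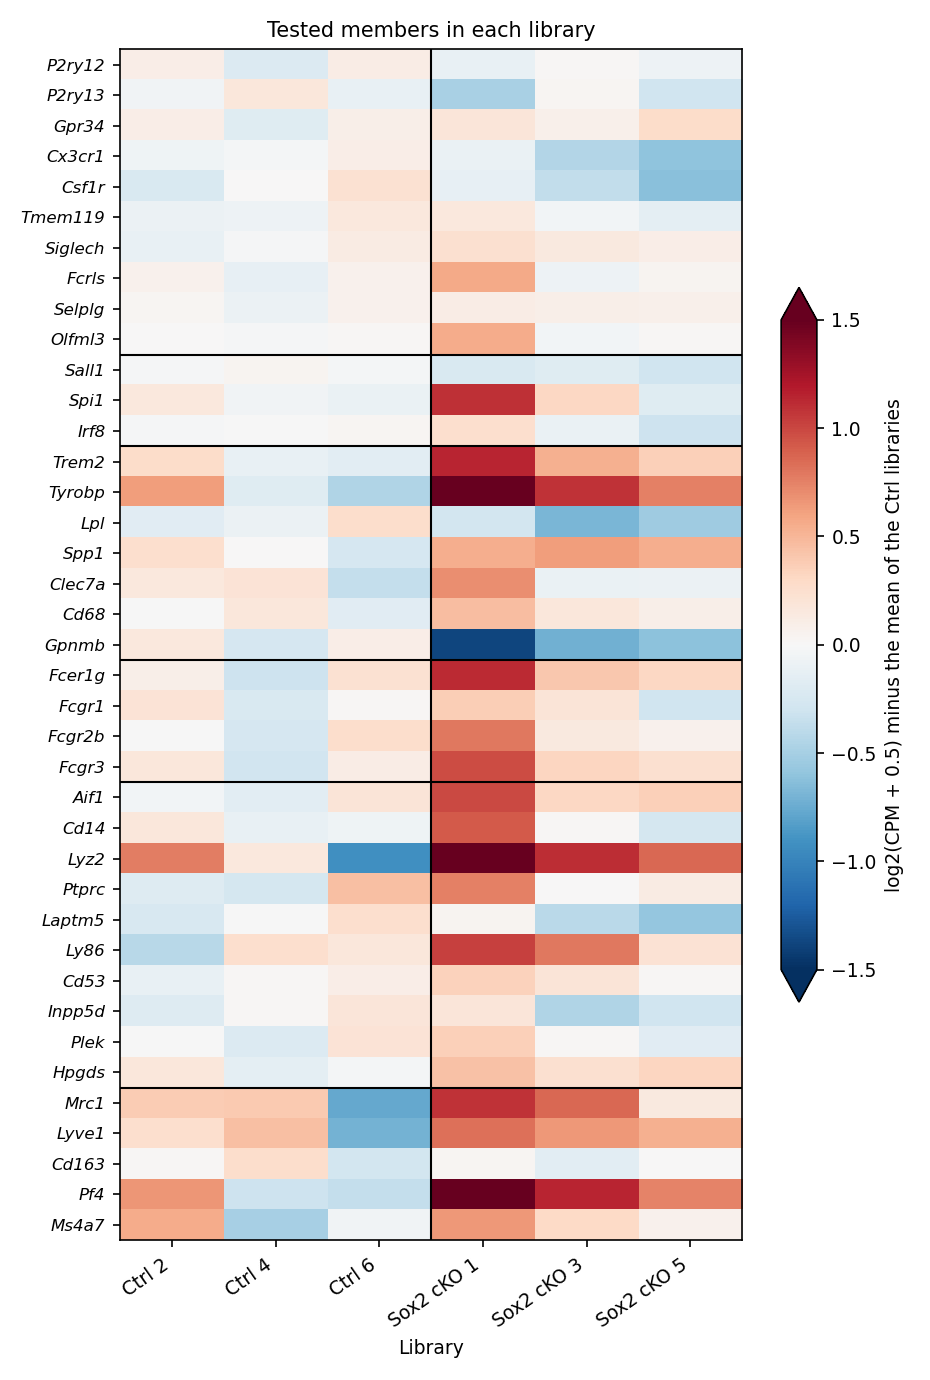
Deviation of each tested member from its mean over the Ctrl libraries, as log2(CPM + 0.5), in each of the 6 libraries, with black lines between the role groups. The column of Sox2 cKO library 1, with a median of 0.46, is redder than those of libraries 3 and 5, with medians of 0.09 and 0.04, and blue marks Mrc1, Lyve1 and Lyz2 in Ctrl library 6.

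Spp1 and Tyrobp held their calls in the most fits without a library. DESeq2 called both in all 6 of these fits, and edgeR called Spp1 in 4 of 6 and Tyrobp in 2 of 6. Trem2, Lyz2, Pf4 and Gpnmb were each called by edgeR in 2 of 6 such fits, and Lpl and Ly86 in 1 of 6. Two-sided exact permutation of the CPM values gave p = 0.1 for every called member but Ly86, for which p = 0.2, and 0.1 is the smallest value that 3 mice against 3 allow.

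Fold changes followed gene length in the panel as in the whole table. Spearman's rho of the length behind the FPKM with the log2 fold change was -0.51 over the 39 tested members and -0.48 over the 16137 genes, which share libraries and are not independent replicates. For this, 5 length classes of like size were formed from all tested genes. In the shortest class, up to 1707 bases, 30.4% were called higher and 1.74% lower, and the median log2 fold change was 0.30. The 10 members in that class had a median of 0.67, and 5 of them, Tyrobp, Pf4, Ly86, Lyz2 and Spp1, were called higher. Trem2 was the only member called higher outside it. Lpl and Gpnmb lay in the next to longest class, from 3544 to 4868 bases, in which 14.2% of all genes were called lower.

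When the trend of counts with length was taken out of each library, 2 members were called, Trem2 as higher and Gpnmb as lower, or 5.13% of those tested against 13.1% of all genes. The log2 fold change was then 0.86 for Trem2 (adjusted p = 0.042), -1.04 for Gpnmb (adjusted p = 0.042), 0.79 for Tyrobp (adjusted p = 0.075) and 0.32 for Spp1 (adjusted p = 0.052). For Lyz2 it was 0.97 (adjusted p = 0.085), for Pf4 1.20 (adjusted p = 0.089), for Lpl -0.45 (adjusted p = 0.066) and for Ly86 0.36 (adjusted p = 0.34, all edgeR). The lengths used matter here. When the median transcript length of each gene was used instead, an alternative added after the data were seen, Lyz2, Pf4, Spp1 and Tyrobp were called higher and Csf1r, Gpnmb, Laptm5 and Lpl lower, and Trem2 had an adjusted p-value of 0.056. Gpnmb was the only member called under both corrections.

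**Figure D4:**
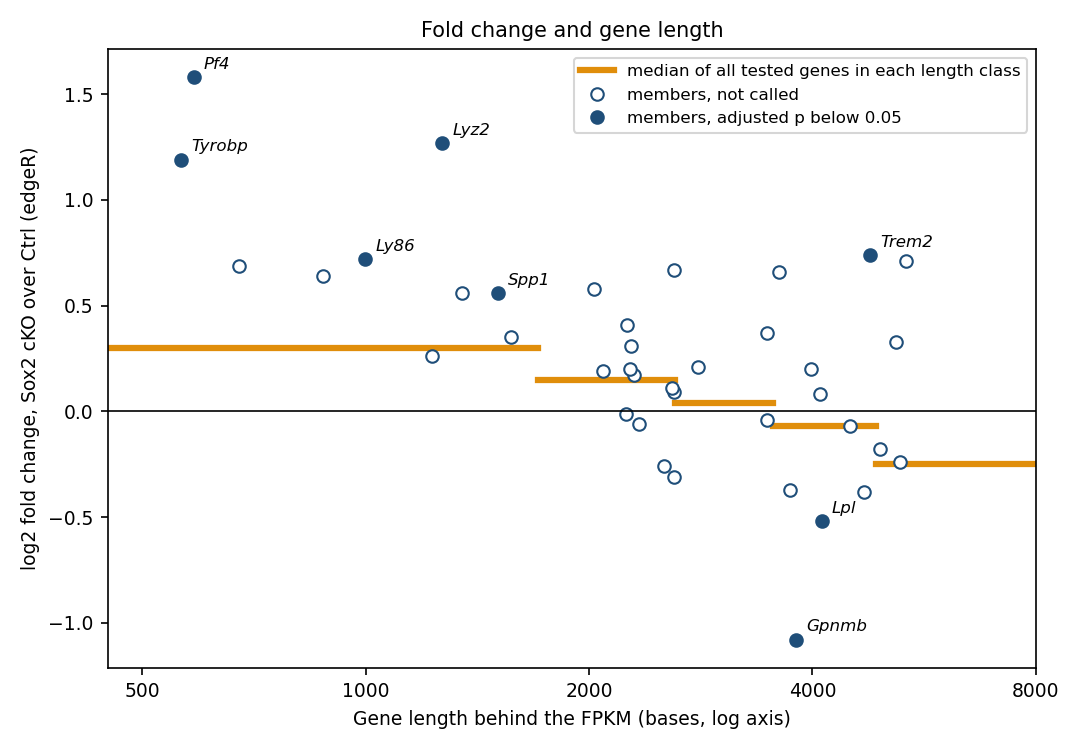
Log2 fold change of each tested member (edgeR) against the gene length behind its FPKM in bases on a log axis, with the median of all tested genes in each of the 5 length classes as a bar. The bars fall from 0.30 to -0.25 as length grows, and 5 of the 6 members called higher lie over the shortest class.

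RefSeq promoter windows of 300 bases, 250 of them before the start site, were at hand for 31 of the 40 members, with 39 windows in all (build GRCm38.p6). The core motif of PU.1, searched as GAGGAA on both strands, was in a window of 19 of the 31 members, or 61.3%, and of 31.3% of 27025 genes. The longer form GAGGAAGT, which contains it, was in windows of 5 members, Cd53, Hpgds, Inpp5d, Pf4 and Spp1, or 16.1%, and of 3.69% of genes. ACAAAG, a core that SOX proteins bind, was in windows of 7 members, or 22.6%, and of 21% of genes. These are matches of letters and do not show binding. The stretches below, all before the start site and on the plus strand, are those of Spp1 and Pf4 with the longer PU.1 form, of Trem2 with the core and of Gpnmb with ACAAAG. They are shown because the 4 genes were called, and the capitals mark the motif or its reverse complement.
Spp1, chr5:104434958-104435045: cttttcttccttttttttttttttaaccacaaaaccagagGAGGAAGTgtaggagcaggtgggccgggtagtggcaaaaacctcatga
Pf4, chr5:90772385-90772434: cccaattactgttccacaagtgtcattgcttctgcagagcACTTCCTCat
Trem2, chr17:48346321-48346400: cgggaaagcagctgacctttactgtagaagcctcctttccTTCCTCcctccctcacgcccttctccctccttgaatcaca
Gpnmb, chr6:49036306-49036391: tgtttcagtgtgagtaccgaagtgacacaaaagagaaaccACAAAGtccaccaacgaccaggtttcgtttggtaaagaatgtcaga
Of the 6 called members with a window, 3 held the PU.1 core and 3 held ACAAAG, and Spp1 held both.

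Genes related to the panel were read from lists of their own. Of 25 further microglia genes, all tested, 4 rose and 1 fell in edgeR, which is 20% called beside 24.6% of all genes. Their median log2 fold change was 0.10, and -0.10 without Sox2 cKO library 1. With the length correction none was called higher, and those called lower included Itgb5 (adjusted p = 0.042, edgeR). The rises were those of the complement genes C1qb (0.75, adjusted p = 0.046) and C1qc (0.65, adjusted p = 0.045), of Ctss, a lysosomal cysteine protease (0.77, adjusted p = 0.041), and of Rgs10, a regulator of G-protein signalling (0.67, adjusted p = 0.013). The fall was that of Itgb5, an integrin subunit (-0.35, adjusted p = 0.040). Library 1 was again the highest for C1qb, with 79.4 CPM against 27.4 to 44.0 CPM in the other 5 libraries, and for Ctss, with 117 CPM against 40.7 to 71.8 CPM. The groups overlapped for both, DESeq2 called neither (adjusted p = 0.10 for each), and without library 1 the log2 fold changes were 0.38 for C1qb and 0.41 for Ctss. With the length correction their adjusted p was 0.18 and 0.13 in edgeR. The groups did not overlap for C1qc, whose value without library 1 was 0.33, or for Rgs10, with 0.61.

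Of 13 tested further disease-associated genes 2 rose, B2m, the light chain of MHC class I (0.82, adjusted p = 0.013), and Fabp5, a fatty acid carrier (0.39, adjusted p = 0.037). Axl, a receptor tyrosine kinase for phagocytosis, fell (-0.33, adjusted p = 0.016, all edgeR). The calls were 23.1% of this list, against 24.6% of all genes tested. With the length correction B2m was the 1 gene called higher, Fabp5 had an adjusted p of 0.053, and 4 were called lower, Axl, Cd63, Ctsz and Lgals3 (edgeR). Of 9 tested further border macrophage genes 1 rose, Cbr2, a carbonyl reductase, with 1.57, 1.54 and 0.579 CPM in Ctrl and 3.16, 2.22 and 2.38 CPM in Sox2 cKO (log2 fold change 1.05, adjusted p = 0.045, edgeR). Like Mrc1 and Lyve1, Cbr2 was lowest in Ctrl library 6, and without that library its log2 fold change was 0.73 (adjusted p = 0.10, edgeR). The call of Cbr2 was 11.1% of the tested list, against 24.6% of all genes. With the length correction edgeR called 0 genes of the list.

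Of 13 tested ligands and receptors of the microglial niche, which include CSF1, IL-34, fractalkine and TGF-beta, 1 fell and none rose. It was Tgfb2, with 13.2, 16.6 and 20.6 CPM in Ctrl and 10.3, 10.9 and 10.7 CPM in Sox2 cKO (log2 fold change -0.66, adjusted p = 0.017, edgeR). This fall was 7.69% of the tested list, where 12.4% of all genes were called lower. None of 15 genes that signal downstream of ITAM and ITIM receptors such as TYROBP and the Fc receptors was called by edgeR or DESeq2, and none had an unadjusted p-value below 0.05. The most abundant of them by FPKM were Grb2, with a log2 fold change of 0.03, and Pik3cd, with -0.06.

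Genes of other cell types were read to see what moved beside the panel. Of 7 tested neutrophil genes 6 rose, or 85.7%, against 12.2% of all genes. They were S100a8 (1.91), S100a9 (2.36), Ngp (1.60), Camp (1.36), Ltf (1.26) and Mmp8 (2.06 on the log2 scale). Their adjusted p-values were 0.012 to 0.041 in edgeR. S100a8, S100a9, Ngp and Camp lay in the shortest length class, in which 30.4% of all genes were called higher. With the length correction 4 of the 7 were called. Without Ctrl library 4 or Sox2 cKO library 1 edgeR called 0, and without Ctrl library 6 or Sox2 cKO library 3 it called 1. It called 6 without Ctrl library 2 and 7 without Sox2 cKO library 5. The neutrophil list summed to 12.5 to 19.4 CPM in Ctrl and to 70.9, 73.3 and 23.2 CPM in Sox2 cKO libraries 1, 3 and 5. Neutrophils also make Lyz2, Fcer1g, Fcgr3 and Tyrobp, and their part in the values of these members was not tested. In library 5 the neutrophil list, at 23.2 CPM, was closest to Ctrl but still above all Ctrl libraries. Tyrobp had 9.44 CPM and Lyz2 27.2 CPM there, against at most 8.61 and 25.3 CPM in Ctrl.

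Most defining genes of monocytes and lymphocytes were low, with Vcan and Ighm as exceptions. Ccr2 had 0.0483 to 0.791 CPM, and the list of 12 T and NK cell genes summed to 1.30 to 2.85 CPM over all 6 libraries, with Trac and Lck the most abundant and none called. Of the monocyte list Vcan fell (-0.43), a gene that oligodendrocyte precursors also make. Of the B cell list Ighm, the heavy chain of IgM, rose (0.53, adjusted p = 0.025, edgeR), with 47.5, 37.1 and 32.7 CPM in Ctrl and 52.5, 51.5 and 65.6 CPM in Sox2 cKO, while Cd79a had at most 0.665 CPM. With the length correction edgeR called 0 genes of the B cell list. Among its fits without 1 library, it called 1 gene without Ctrl library 2 and 0 in the others. No gene of the dendritic and mast cell list was called, where Flt3 (0.00) and Kit (-0.28) had the most FPKM, and Mcpt4 had 0 counts in every library. None of the 6 red blood cell genes was called (Hbb-bs -0.02, Hba-a1 -0.36). DESeq2 called no gene of the T and NK, dendritic and mast, or red blood cell lists either, and 1 of their tested genes had an unadjusted p-value below 0.05, in the dendritic and mast cell list.

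Of 10 meningeal fibroblast genes Pdgfra fell (-0.37), which oligodendrocyte precursors share, and of 8 endothelial genes Ly6c1 rose (1.09). Cldn5, the tight junction protein of vessels, had 43.6 CPM in Sox2 cKO library 1 against 15.5 to 19.3 CPM elsewhere. Of 8 astrocyte genes Gfap (-1.11), Aqp4 (-0.44), Aldh1l1 (-0.37), Slc1a2 (-0.62) and Slc1a3 (-0.43) fell, and of 5 genes of oligodendrocyte precursors Cspg4 (-0.67), Pdgfra and Gpr17 (-0.87) fell. These falls were 62.5% and 60% of the lists, against 12.4% of all genes tested. With the length correction edgeR called 2 astrocyte genes and 1 precursor gene, all lower. In fits without 1 library it called 0 to 5 and 0 to 3, with 0 of both lists called without Sox2 cKO library 1. None of 6 oligodendrocyte genes (Mbp 0.19) and none of 6 neuronal genes (Snap25 0.35, Nefl 0.06) was called by edgeR, where DESeq2 called 2 and 1 of them and 1 of each list had an unadjusted p-value below 0.05.

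Exons of P2ry12, Csf1r and Plek overlap those of a gene on the other strand, Med12l, Hmgxb3 and Cnrip1 respectively, Cx3cr1 and Fcgr2b overlap antisense transcripts, and Spp1 overlaps an unconfirmed transcript on its own strand. The library kit keeps the strand, but the strand setting of the counting is not given in the sources used here. Reads in the shared stretches can therefore not be assigned with certainty for these 6 members.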

How the data were processed

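Single-end reads of 6 spinal cord libraries were aligned by the authors to mm10 with STAR 2.5 and counted on genes with HTSeq 0.6.1, per the submitters' processing notes. The authors deposited raw counts per gene and FPKM values made from the same counts, and 0 further columns of per-sample values were left unused. The RNA integrity number was above 6.8 per the labels, and the paper gives a higher minimum. Symbols, positions and transcripts came from GENCODE M21 (GRCm38, the build of mm10), and 34490 of 35275 identifiers matched.

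The counts were tested with edgeR 4.0.16 in R 4.3.3 (filterByExpr, TMM, quasi-likelihood test, no covariate, Benjamini-Hochberg adjustment over all genes tested, threshold 0.05). The standard error is the fold change over the root of the F statistic, and the biological coefficient of variation was 0.119. The p-values measure the spread between 3 libraries of each group, and which label replicate each library is was not known. Alternatives were DESeq2 1.42.0, upper quartile normalization, no filter, at least 10 counts in every library, limma 3.58.1 on log2(FPKM + 1) and log2(FPKM + 0.1) where the mean FPKM reached 0.5, a correction for gene length by a lowess curve (span 0.3) in each library, and leaving out each library. DESeq2 without each library and the correction with median transcript lengths were added after the data were seen. Promoter motifs were searched with Python 3.11.15.

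On simulated data for this comparison, with 196 of 15979 tested genes changed by a log2 fold change of 1, edgeR recovered 91.3% and 4.79% of its calls were unchanged genes. The simulated counts had the same relative spread for every gene, no trend with gene length and no library that stood apart. The real data differ in all of these, so the rates check the code and do not give the accuracy of the calls here.

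Members and lists were chosen with earlier results of these data known. Values in each library were to be given for every called member and for 26 members fixed by name, and values of the other lists for called genes or, without any, for the 2 of highest FPKM. Members and other genes described beyond this rule were chosen after their values were seen. For 1 list, 1 value that this rule would give is not reported here.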

Additional observations from a re-analysis of the deposited data

How the results depend on the processing

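No paired analysis was possible because the deposited columns carry no replicate numbers. With 3 libraries a group, depth limits Cst7, Clec7a, Ms4a7 and Pf4 most. The 8 called members kept their direction in every alternative, but lost their call in 64 of 154 refits; the members not called gained a call in 31 of 602. The number of members called higher, 6, was 1 with the length correction. The number called lower, 2, was 4 with DESeq2, 4 with no filter on low counts, 4 with median transcript lengths, 1 with the length correction and 0 with limma at either pseudocount. All genes called, 3970, were 2109 with the length correction. Without 1 library each (edgeR and DESeq2), 8 to 6119 genes were called, with 0 to 8 members higher and 0 to 5 lower. edgeR called 0 members without Ctrl library 4 (26 genes in all, 12 members with an unadjusted p-value below 0.05) or without Sox2 cKO library 1 (8 genes, 12 members), 1 without Ctrl library 6 or Sox2 cKO library 3, and 10 without Ctrl library 2. The median over members stayed positive, from 0.05 to 0.32 without a library. limma called 2670 genes higher and 915 lower at a pseudocount of 1, against 1962 and 2008.

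Signs turned only for members that were not called. Under limma with pseudocounts of 1 and 0.1 the log2 fold change of P2ry12 was 0.04 and 0.04, of Tmem119 0.08 and 0.09, of Irf8 0.03 and 0.04 and of Cd163 0.02 and 0.05. With upper quartile normalization Tmem119 was 0.04 and Irf8 0.01. With the length correction Cd68 was -0.05 and Cd163 0.03, and with median transcript lengths Selplg was -0.06, Sall1 0.01 and Cd163 0.14. Without 1 library, the range was -0.06 to 0.31 for Fcgr1, -0.09 to 0.19 for Plek, -0.22 to 0.09 for Cd163, -0.11 to 0.07 for Tmem119, -0.03 to 0.33 for Fcrls, -0.02 to 0.32 for Olfml3, -0.25 to 0.56 for Clec7a, -0.15 to 0.60 for Cd14 and -0.23 to 0.09 for Irf8.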
